A study of Mus musculus with 4 samples.

Results

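The cells described here are fibroblasts from the injury site at the mouse Achilles tendon that were rich in Sfrp2 and Col14a1. They were taken from 2 single-cell libraries made 7 days after a burn/tenotomy injury and chosen by measured values. Their tissue of origin was not tested, and the libraries of replicates 1 and 2 and of replicate 3 also held 62 and 41 cells with keratinocyte markers. A barcode was kept with at least 200 genes, at least 2000 UMIs (unique molecular identifiers, which count captured RNA molecules) and at most 20% mitochondrial UMIs. A kept cell was called a type I collagen cell when Col1a1 and Col1a2 made up at least 1% of its UMIs. It was selected when Sfrp2, Prg4 and Col14a1 together reached at least 0.1% of its UMIs and exceeded both the tendon set (Thbs4, Comp, Fmod and Tnmd) and the Coch set (Coch and Crabp1). This rule found 169 cells among 1919 kept cells. The library of replicates 1 and 2 gave 99 of 1188 kept cells (8.33%, Wilson 95% interval 6.89 to 10.0%), and the library of replicate 3 gave 70 of 731 (9.58%, 7.65 to 11.9%). Among the 677 type I collagen cells they were 25.98% and 23.6%, tendon-set cells were 55.1% and 55.7%, and only 9 and 6 cells fell in the Coch set.

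Both libraries came from Hoxa11CreER;ROSA-LSL-TdTomato;Hif1a fl/fl mice, a line in which a tamoxifen-activated Cre recombinase made in Hoxa11-expressing limb mesenchyme can switch on a TdTomato reporter and remove the floxed part of Hif1a. The labels do not state whether these mice were Cre-positive or Cre-negative littermates, so neither library can be read as Hif1a-deleted. The mice had received 75 mg/kg tamoxifen daily and a washout of 9 days before injury. The wound tissue was digested with collagenase and dispase, and no sorting of cells is described, so cells with and without recombination can be mixed. The first library pools replicates 1 and 2, so that 3 replicates gave 2 libraries. No value below compares genotypes. The 3' tags of Hif1a do not check its deletion. A further pair of sections of wild-type C57BL/6 tendon (10-week-old mice, same injury, day 7) was measured with Visium, a probe-based assay for fixed tissue that counts RNA over small spots. The libraries held 31536402 and 23379476 UMIs, with a median of 36508 and 44412 UMIs per selected cell against 51872 and 48941 per tendon-set cell. The libraries shared 1 cell barcode, which was no selected cell, and Scrublet marked 0 and 1 of the selected cells as doublets.

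Tendon is surrounded and threaded by loose connective tissue, the paratenon and the sheath, whose fibroblasts make a softer matrix than the aligned type I collagen of the tendon proper. Such fibroblasts, found around vessels and in the fascia of most organs, produce chemokines, complement proteins and growth factors, and are among the first stromal cells to respond when tissue is wounded. Sfrp2 is a secreted Wnt-binding protein of fibroblasts in the dermis and in healing wounds. Col14a1 encodes a collagen that associates with collagen fibrils, and Prg4 encodes lubricin, the lubricant made by synovial lining and gliding surfaces. In this injury model cartilage and bone later form inside the tendon, a process called heterotopic ossification.

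Sfrp2 (chr3:83766321-83774316, GRCm38, GENCODE vM21) and Col14a1 (chr15:55307750-55520803) carried the selection, and Prg4 (chr1:150449412-150466165) hardly took part in it. Col14a1 was the leading gene of the set in 51 and 46 cells, Sfrp2 in 47 and 24, and Prg4 in 1 and 0 cells. Levels are given below in CPM, the UMIs of a gene scaled to a common total after all cells of a class in a library were summed, with the library of replicates 1 and 2 first. Sfrp2 reached 1957 and 1201 CPM and Col14a1 reached 1251 and 1449.6 CPM in the selected cells. Prg4 stood at 104 and 23.1 CPM, below its 312 and 179 CPM in tendon-set cells. A single cell held 213 of the 382 Prg4 UMIs in the first library, and without that cell the level was 46.9 CPM. Of all Prg4 UMIs in kept cells, the selected fibroblasts held 10.0% and 0.852%. In the library of replicate 3, 6837 of 8455 Prg4 UMIs lay in 2 cells in which type I collagen made up at most 0.341% of UMIs, so that the most Prg4-rich cells fell outside the rule. The data thus go against Prg4 in the cells' working name, and the cells are called Sfrp2 and Col14a1 fibroblasts here.

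The remaining markers of the working name, which the rule did not use, were present. The name was given with earlier results of these data known, so their levels and tests are a description and no separate check. Ptx3 also belongs to the list of chemokine, cytokine and acute-phase genes below. Ptx3, which encodes a secreted pattern-recognition protein of the innate response, had 786 and 761 CPM against 148 and 146 CPM in tendon-set cells (log2 fold change 2.47 ± 0.084, adjusted p = 9.94e-06, edgeR). Lum, which encodes the fibril-spacing proteoglycan lumican, differed far less, with 2380.00 and 2476 CPM against 1946 and 1991 CPM (log2 fold change 0.38 ± 0.061, adjusted p = 0.00435). All 6 general fibroblast markers (Pdgfra, Dcn, Col3a1, Lum, Mmp2 and Fstl1) were detected in both libraries and summed to 39066 and 43711 CPM. Their sums were 25319 and 28050 CPM in tendon-set cells and 65.9 and 118 CPM in cells with haematopoietic markers. The latter cells also held UMIs of all 6, so detection alone does not separate cell types. Col14a1 and Lum had a UMI in 99 of 99 and 70 of 70 cells, Sfrp2 in 81 and 61, Ptx3 in 80 and 59 and Prg4 in 32 and 21. When each cell was thinned to 2000 UMIs to equalise depth, Sfrp2 was detected in 69.7% and 60.0% of the selected cells, in 18.1% and 18.2% of tendon-set cells and in 0.27% and 0.521% of cells with haematopoietic markers, which should lack it. Sfrp2 helped to choose the cells, so this contrast follows from the rule and is only a description. Thinned Prg4 was detected in 6.06% and 2.86% of the selected cells and in 21.4% and 16.97% of tendon-set cells. The Prg4 signal was thus less frequent in the selected cells than in the tendon-set cells on both scales.

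Markers of other cell types were scarce in the selected cells. The 6 haematopoietic markers summed to 6.56 and 79.4 CPM, the 5 endothelial markers to 10.9 and 6.09 CPM, the 4 Schwann cell markers to 10.4 and 8.65 CPM and the 4 skeletal muscle markers to 8.20 and 4.16 CPM. Myh4 and Sox10 were at 0 in both libraries. Pericyte and smooth muscle markers summed to 187 and 134 CPM against 1306 and 1668 CPM in tendon-set cells, and Myh11 was at 0 in the library of replicate 3. Red cell genes differed between the libraries, at 44.3 and 464 CPM in the selected cells and 471 and 785 CPM in tendon-set cells. Keratinocyte markers summed to 26.2 and 33.0 CPM against 580.4 and 24.1 CPM, so that in the first library they were higher in the tendon-set cells.

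**Figure D1:**
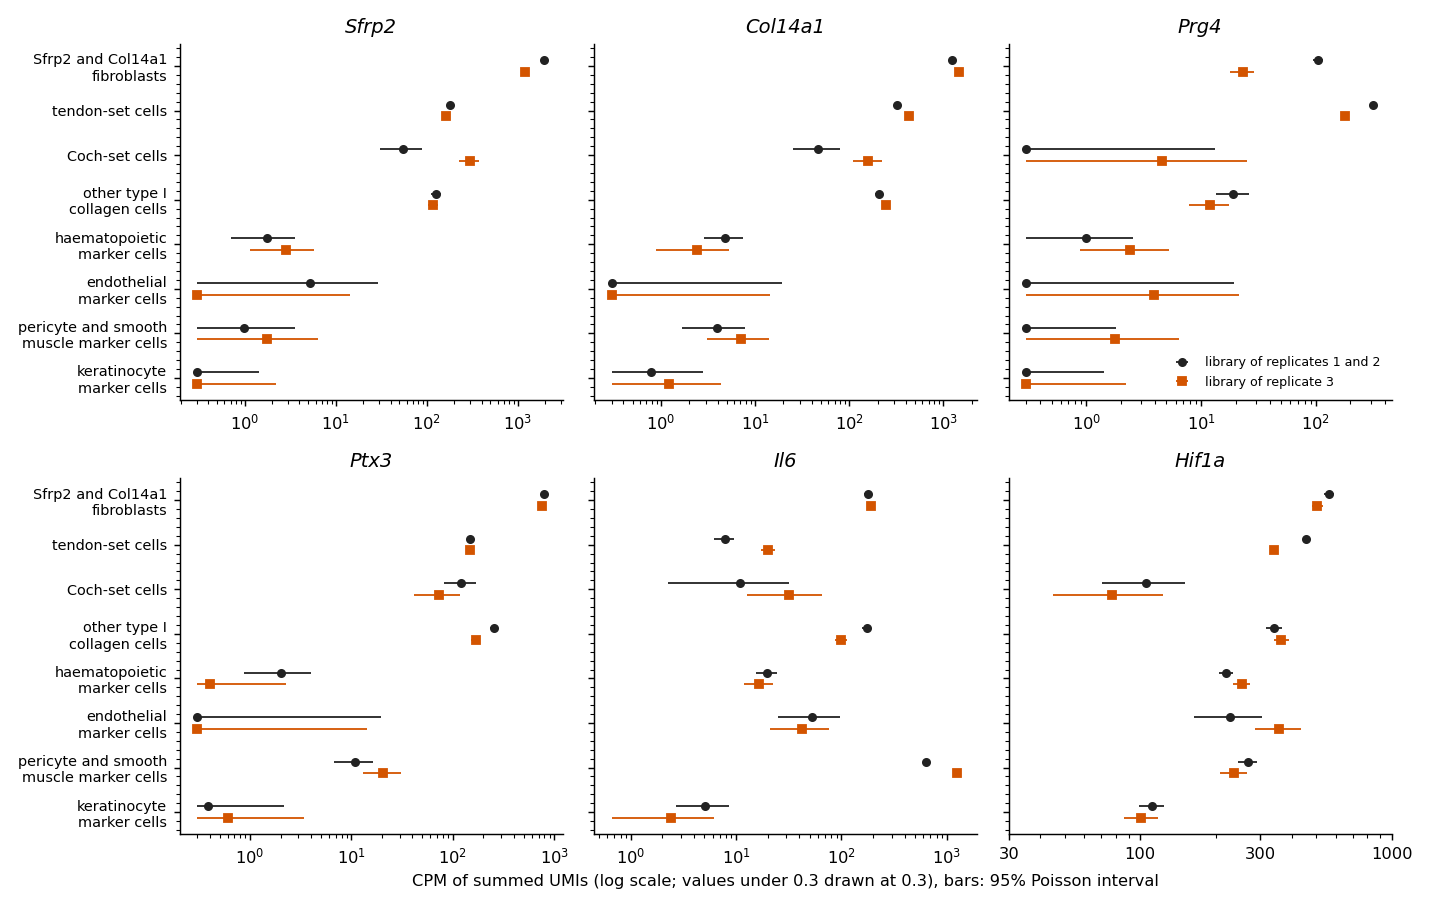
Levels of 6 genes (CPM of summed UMIs, log axis) in 8 cell classes of the 2 libraries, with 95% Poisson intervals that cover counting error only. Sfrp2 and Col14a1, which chose the cells, and Ptx3, which did not, are highest in the selected fibroblasts. Prg4, also of the rule, is higher in tendon-set cells, and Il6 is highest in cells with pericyte and smooth muscle markers.

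The edge of the selection was gradual. The set made up 0.1% of UMIs in the lowest selected cell of either library, 0.232% and 0.211% in the median cell and 1.36% and 0.705% in the highest. Just inside the threshold, 9 and 7 selected cells had less than 0.12%, with medians of 0.106% and 0.112%. Just outside it, 9 and 4 further type I collagen cells had at least 0.08%, with medians of 0.0906% and 0.0946%. The boundary to the tendon-set cells was also crossed from either side, since 61 and 43 tendon-set cells had at least 0.1% of the Sfrp2 set and 21 and 10 selected cells had at least 0.1% of the tendon set.

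To ask what else set these fibroblasts apart, UMIs were summed per library and class, and the Sfrp2 and Col14a1 fibroblasts were compared with the tendon-set cells of the same library with edgeR's quasi-likelihood test, the library being a block. The 11 genes of the rule were left out of the test. Of 11991 genes tested, 1590 were higher (13.3%) and 1247 lower (10.4%) at an adjusted p under 0.05, which makes 23.7% in all, and the median log2 fold change over all genes was -0.01. The classes were made on genes measured in the same cells, so any gene that varies with the genes of the rule differs between the classes with them. A call rests on 2 libraries with 1 residual degree of freedom. Its p measures only how far the difference between classes varies between these libraries, with the spread of each gene drawn towards that of all genes. When a random division of each cell's UMIs was used, so that one portion chose the classes and the other was tested, 1206 genes were higher and 854 lower of 10714. With 9 and 6 cells, the Coch-set cells were too few for the comparison that had been planned with them. Fold changes below are log2 values, selected fibroblasts over tendon-set cells, and CPM pairs give the selected fibroblasts first. The ± value is an SE (n = 2 libraries) derived from the edgeR test statistic. Like p, it draws the spread of each gene towards that of all genes. It can be smaller than the spread between the libraries, as for Col2a1, whose log2 ratios were -8.09 and -3.76. Counts of called genes per list are to be read beside the 13.3% higher and 10.4% lower over all genes.

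**Figure D2:**
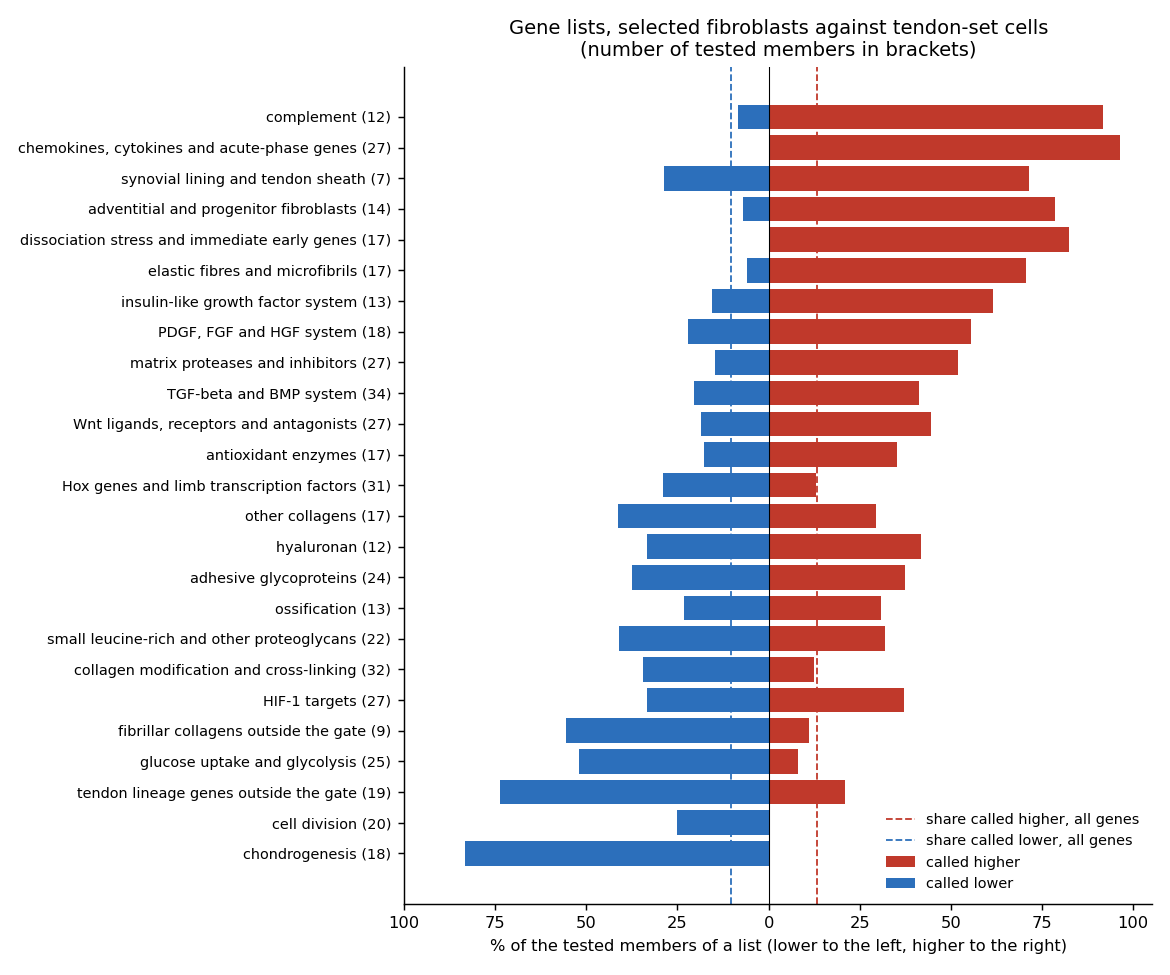
Share of the tested members of each gene list that was called higher (red, to the right) or lower (blue, to the left) in the Sfrp2 and Col14a1 fibroblasts than in tendon-set cells, in %. Dashed lines give the shares over all 11991 genes, 13.3% higher and 10.4% lower. Inflammation, complement, adventitial and dissociation-stress genes lie far to the right, and chondrogenesis and tendon genes far to the left.

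Genes of the inflammatory response showed the most uniform difference. Of 27 listed chemokine, cytokine and acute-phase genes, 26 were called higher, 0 lower, and Cxcl9 was not called (2.19 and 8.01 CPM against 12.9 and 4.75 CPM). Their median log2 fold change was 2.10. DESeq2 called 21 of them higher and 0 lower, and 0 were lower in edgeR at an unadjusted p under 0.05. Among the chemokines, Cxcl5, a neutrophil attractant, reached 795 and 437 CPM against 27.8 and 15.3 CPM (log2 fold change 4.91 ± 0.10, adjusted p = 2.46e-06), with a UMI in 65.7% and 45.7% of the selected cells against 9.05% and 9.70% of tendon-set cells. Cxcl14, which attracts monocytes and dendritic cells, reached 737 and 585 CPM against 30.9 and 52.4 CPM (log2 fold change 4.10 ± 0.24, adjusted p = 4.52e-05). In both libraries the selected cells were the higher class for both genes. Ccl11, the eosinophil attractant eotaxin, reached 68.4 and 53.8 CPM against 4.69 and 2.85 CPM (log2 fold change 4.08 ± 0.17, adjusted p = 1.48e-05), and Ccl19, a ligand of the lymphocyte homing receptor CCR7, 43.2 and 44.8 CPM against 0.46 and 1.9 CPM (log2 fold change 5.38 ± 0.35, adjusted p = 6.6e-05). Ccl11 was not particular to the selected cells, since the other type I collagen cells had 78.6 and 117 CPM. The most abundant chemokine of the list, the neutrophil attractant Cxcl1, had 2633 and 2642 CPM against 772 and 861 CPM and was thus also well expressed in tendon-set cells.

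Cytokines and their receptors followed the same direction. Il6, the central acute-phase cytokine, had 178 and 189.9 CPM against 7.82 and 20.1 CPM (log2 fold change 3.89 ± 0.26, adjusted p = 7.77e-05), and 55.6% and 60.0% of the selected cells held a UMI. A single cell held 22.6% and 20.2% of the Il6 UMIs, and cells with pericyte and smooth muscle markers had more Il6, 631 and 1261 CPM. In the other type I collagen cells Il6 had 173 and 99.3 CPM, and in the first library their Poisson interval (156 to 192 CPM) overlapped that of the selected cells (165 to 192 CPM). Il33, an alarmin of barrier stroma, had 174 and 138 CPM against 14.4 and 15.3 CPM, and the receptor Il1r1, through which interleukin-1 acts on stroma, had 245 and 177 CPM against 36.1 and 27.1 CPM. Both were called, with log2 fold changes of 3.46 ± 0.14 and 2.81 ± 0.10. Saa3, a serum amyloid made by stroma and macrophages, differed between the libraries, with 343 and 132 CPM against 22.4 and 18.9 CPM (log2 fold change 3.49 ± 0.25, adjusted p = 9.44e-05). Cxcl12, a retention signal for leukocytes and progenitors, had 895 and 839 CPM against 129 and 158 CPM, and the prostaglandin-producing enzyme gene Ptgs2 had 466 and 418 CPM against 204 and 149 CPM.

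**Figure D3:**
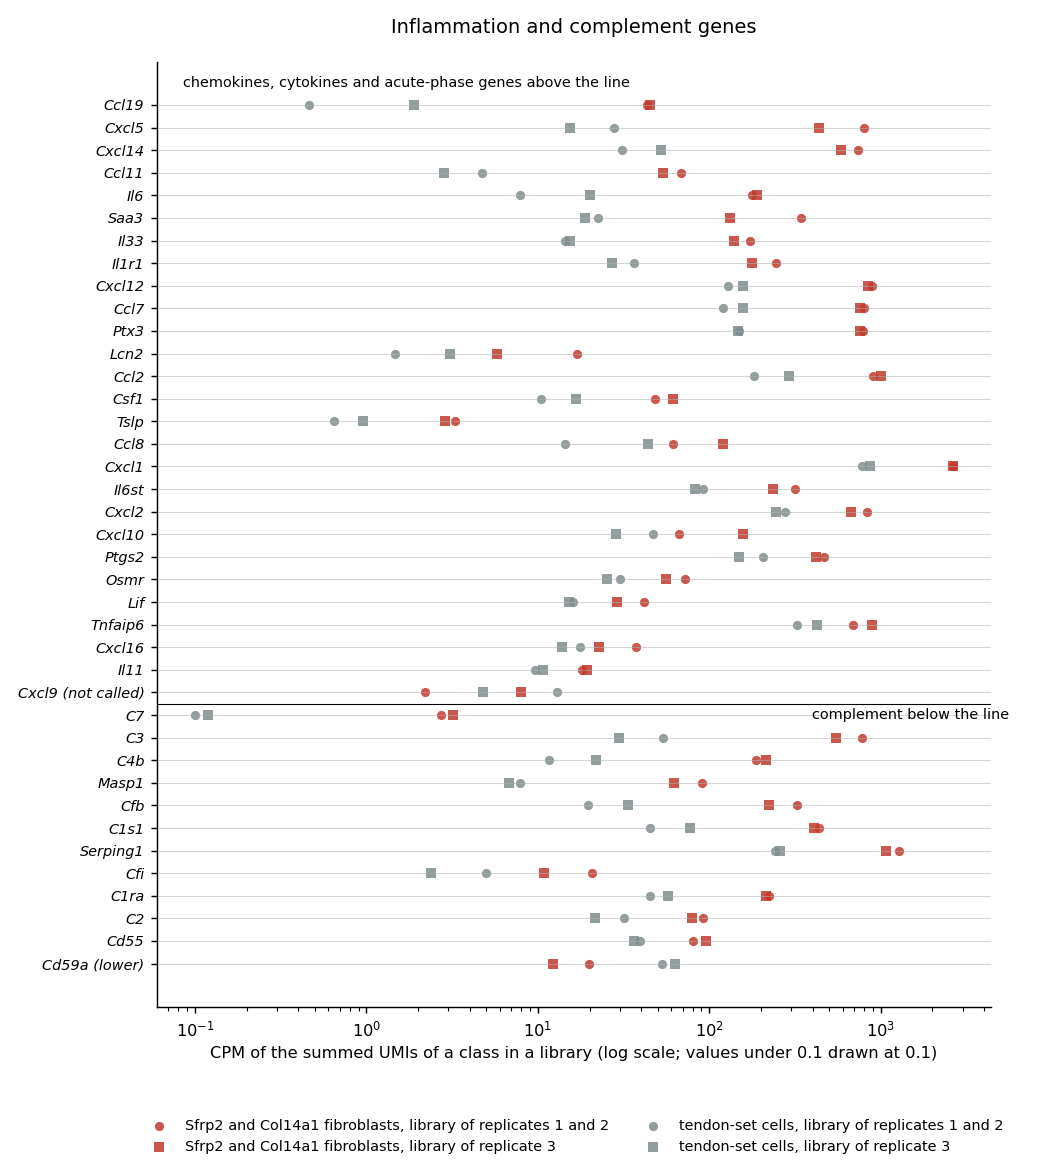
Levels (CPM of summed UMIs, log axis) of the tested inflammation and complement genes in the Sfrp2 and Col14a1 fibroblasts (red) and tendon-set cells (grey), with a circle for the library of replicates 1 and 2 and a square for the library of replicate 3. The red points lie to the right of the grey ones for all genes but Cxcl9, whose points interleave, and Cd59a, which is reversed.

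The promoters of these genes were examined for a classical form of the κB element, the binding sequence of NF-κB transcription factors, written GGGANTTTCC and searched on both strands. Of the 26 genes called higher, 20 had a RefSeq promoter window of 300 bases (GRCm38.p6), and 4 of these (20%) held the motif, compared with 0.466% of all 27025 symbols with a window and 0.47% of the 9366 tested genes with a window. All listed genes but Cxcl9 were called higher, so the share describes the list and cannot be set against uncalled members. The motif was chosen after the calls were known, and a match is a description of letters and no evidence of binding. The 200 bases before the annotated start of these 4 genes are shown because they share this motif, which is in capitals.
Il6, chr5:30012914-30013113, plus strand: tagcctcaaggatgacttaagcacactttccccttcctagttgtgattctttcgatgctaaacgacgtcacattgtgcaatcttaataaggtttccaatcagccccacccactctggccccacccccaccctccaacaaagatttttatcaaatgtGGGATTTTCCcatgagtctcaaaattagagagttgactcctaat
Cxcl1, chr5:90891045-90891244, plus strand: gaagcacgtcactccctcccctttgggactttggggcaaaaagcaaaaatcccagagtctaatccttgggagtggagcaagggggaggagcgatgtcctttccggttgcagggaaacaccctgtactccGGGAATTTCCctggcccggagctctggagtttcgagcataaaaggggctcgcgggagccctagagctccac
Cxcl2, chr5:90903699-90903898, plus strand: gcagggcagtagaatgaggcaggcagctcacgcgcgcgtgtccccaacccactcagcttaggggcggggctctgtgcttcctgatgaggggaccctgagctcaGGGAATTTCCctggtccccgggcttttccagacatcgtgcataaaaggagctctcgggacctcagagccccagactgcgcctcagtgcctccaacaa
Csf1, chr3:107760470-107760669, minus strand: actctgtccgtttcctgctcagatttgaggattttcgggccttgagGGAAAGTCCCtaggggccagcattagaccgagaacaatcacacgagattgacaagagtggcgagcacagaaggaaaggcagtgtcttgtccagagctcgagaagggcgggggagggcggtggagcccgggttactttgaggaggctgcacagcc
The motif began 44 bases before the start of Il6, 71 before that of Cxcl1, 97 before that of Cxcl2 and, on the opposite strand, 154 before that of Csf1. Cxcl1 and Cxcl2 are neighbouring chemokine genes, and their motifs have the same letters. Cxcl2 had 833 and 667 CPM against 277 and 246 CPM (log2 fold change 1.59 ± 0.086, adjusted p = 3.14e-05). Csf1, the growth factor of macrophages, had 48.1 and 61.2 CPM against 10.5 and 16.8 CPM (log2 fold change 2.10 ± 0.15, adjusted p = 9.03e-05).

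Complement genes were higher almost throughout. Of 15 listed genes 12 were tested, and 11 were higher and 1 lower, with a median log2 fold change of 2.61. C3, the component on which all complement pathways converge, had 774 and 549 CPM against 53.5 and 29.8 CPM (log2 fold change 4.09 ± 0.12, adjusted p = 6.09e-06). C4b, of the classical pathway, had 188 and 215 CPM against 11.7 and 21.9 CPM (log2 fold change 3.71 ± 0.18, adjusted p = 2.05e-05), and Masp1, a protease of the lectin pathway, had 90.8 and 62.5 CPM against 7.82 and 6.77 CPM (log2 fold change 3.46 ± 0.15, adjusted p = 1.5e-05). The proteases C1s1 and C1ra, the alternative pathway gene Cfb and the inhibitor Serping1 were higher as well, and Serping1 was the most abundant at 1282 and 1068 CPM against 241 and 257 CPM. C7, a gene of the membrane attack complex, was rare, with 10 UMIs in each library against 0 and 1, at least 18.97-fold higher over both libraries with a floor of 3 UMIs. The exception was Cd59a, which protects cells from that complex, with 19.96 and 12.2 CPM against 53.2 and 63.4 CPM (log2 fold change -1.76 ± 0.22, adjusted p = 0.00127).

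Immediate early and dissociation-stress genes moved with these groups. Of 17 listed genes 14 were higher and 0 lower in edgeR (0 at an unadjusted p under 0.05, and 0 in DESeq2), with a median log2 fold change of 0.83. Zfp36, which destabilises cytokine mRNAs, had 716 and 872 CPM against 283 and 339 CPM (log2 fold change 1.43 ± 0.078, adjusted p = 3.39e-05), Junb 1515 and 1589 CPM against 628 and 652 CPM and Egr1 1128 and 1314 CPM against 491 and 528 CPM. The heat shock genes Hspa1a and Hspa1b were not called (adjusted p = 0.193 and 0.141), while Dnajb1 was higher (log2 fold change 1.43 ± 0.16, adjusted p = 0.000784). The part of these genes in the inflammatory differences was not tested.

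Genes known from adventitial and progenitor-like fibroblasts, the cells that wrap vessels and fill fascia, were higher as a group. Of 14 tested genes 11 were higher, 1 lower and 2 not called, with a median log2 fold change of 1.72. Pi16, the defining gene of such cells in many tissues, had 277 and 279.6 CPM against 8.37 and 19.5 CPM (log2 fold change 4.48 ± 0.26, adjusted p = 4.17e-05), with a UMI in 56.6% and 58.6% of selected cells. In the first library 1 cell held 27.8% of its UMIs. Ly6c1 had 258 and 281 CPM against 27.2 and 46.8 CPM, Ly6a, which encodes the stem cell antigen Sca-1, 693 and 764 CPM against 139.9 and 166 CPM, and Cd248, which encodes endosialin, 388 and 452 CPM against 75.8 and 99.96 CPM. All were called, with log2 fold changes of 2.98 ± 0.16, 2.33 ± 0.087 and 2.34 ± 0.099. Clec3b had 308 and 538 CPM against 41.8 and 140.1 CPM (log2 fold change 2.47 ± 0.21, adjusted p = 0.000196), a call that was lost in 1 of 12 alternatives. Igfbp6 went the other way, with 236 and 488 CPM against 421 and 673 CPM (log2 fold change -0.57 ± 0.10, adjusted p = 0.00741).

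The genes of synovial lining and tendon sheath gave a mixed picture. Clic5 and Tspan15, which mark lining cells, were near 0 in both classes. Of 7 tested genes 5 were higher and 2 lower. Has1, a hyaluronan synthase, had 317 and 434 CPM against 51.9 and 79.3 CPM (log2 fold change 2.61 ± 0.10, adjusted p = 1.3e-05), and its relative Has2 had 188 and 194 CPM against 46.1 and 43.7 CPM (log2 fold change 2.16 ± 0.10, adjusted p = 2.05e-05). Tppp3, a gene of sheath and paratenon cells, had 95.7 and 100.3 CPM against 25.8 and 31.3 CPM (log2 fold change 1.86 ± 0.11, adjusted p = 4.96e-05), and Thbd, which encodes thrombomodulin, had 23.5 and 32.03 CPM against 5.61 and 6.66 CPM. The growth factor gene Hbegf was lower, with 108 and 68.2 CPM against 188 and 253 CPM (log2 fold change -1.25 ± 0.23, adjusted p = 0.00735), and Itga6 was lower, with 0.547 and 0.961 CPM against 37.8 and 7.96 CPM (log2 fold change -4.86 ± 0.49, adjusted p = 0.000476). On the side of hyaluronan turnover, the binding proteins Vcan and Tnfaip6 were higher and the depolymerase Cemip was lower, with 11.2 and 1.92 CPM against 43.7 and 38.03 CPM (log2 fold change -2.55 ± 0.37, adjusted p = 0.00275).

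The extracellular matrix of the selected fibroblasts was richer in elastic fibre genes and poorer in tendon and cartilage collagens. Of 17 genes of elastic fibres and microfibrils 12 were higher, 1 was lower and 4 were not called, with a median of 0.80. Eln, which encodes elastin, had 492 and 970.5 CPM against 45.5 and 84.2 CPM (log2 fold change 3.56 ± 0.092, adjusted p = 3.91e-06), with a UMI in 80.8% and 80.0% of selected cells against 24.8% and 30.9% of tendon-set cells. Efemp1 had 83.4 and 71.1 CPM against 5.88 and 2.26 CPM, Fbln1 224 and 225 CPM against 37.8 and 43.4 CPM and Emilin2 72.5 and 87.8 CPM against 12.9 and 20.4 CPM, and all 3 were called (log2 fold change 4.31 ± 0.23, 2.55 ± 0.11 and 2.36 ± 0.14). The microfibril gene Fbn1 had 1160.2 and 1411 CPM against 609 and 607 CPM. Emilin1 was lower, with 162 and 121 CPM against 269 and 232 CPM (log2 fold change -0.75 ± 0.10, adjusted p = 0.00186).

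Among fibrillar collagens outside the rule, only Col3a1, the collagen of soft tissue and early wounds, was higher, with 24597 and 28960.2 CPM against 16158 and 17942 CPM (log2 fold change 0.72 ± 0.042, adjusted p = 4.27e-05), while 5 of 9 were lower. Col5a2 had 2147 and 2346 CPM against 2890.3 and 2969 CPM, and Col11a1, of cartilage and developing tendon, 410.2 and 283 CPM against 1866 and 1199 CPM (log2 fold change -2.06 ± 0.076, adjusted p = 1.11e-05). Of 17 other collagens 5 were higher and 7 lower. The basement membrane collagens Col4a1 and Col4a2 were higher, Col4a1 with 351 and 201 CPM against 83.02 and 116 CPM (log2 fold change 1.53 ± 0.26, adjusted p = 0.00578). Col12a1, which coats tendon fibrils, was lower, with 705 and 602 CPM against 1955 and 1517 CPM (log2 fold change -1.33 ± 0.073, adjusted p = 3.39e-05), and Col6a1, Col6a2 and Col6a3 were lower with log2 fold changes of -0.58, -0.48 and -0.45. Among 24 adhesive glycoproteins 9 were higher and 9 lower. Tnxb, which encodes the tenascin of loose connective tissue, had 130.2 and 259 CPM against 12.2 and 21.99 CPM (log2 fold change 3.56 ± 0.11, adjusted p = 8.79e-06), whereas Tnn and Tnc, tenascins of tendon, bone and wounds, were lower, Tnn with 169.8 and 147 CPM against 867 and 605 CPM (log2 fold change -2.12 ± 0.10, adjusted p = 2.18e-05). Fn1, which encodes fibronectin, was lower, with 4427 and 3595 CPM against 8508 and 6090 CPM, and Postn was not called.

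Collagen-modifying enzymes were more often lower than higher. Of 32 genes 4 were higher, 11 lower and 17 not called, with a median of -0.17, and DESeq2 called 7 lower. Over all genes 13.3% were higher, near the share in this list, and 10.4% lower. Plod2, the lysyl hydroxylase of cross-linked fibrotic collagen, had 278 and 246 CPM against 586 and 434 CPM (log2 fold change -0.87 ± 0.095, adjusted p = 0.000709). Lox, the main lysyl oxidase, had 830.4 and 877 CPM against 991 and 815 CPM and was not called (adjusted p = 0.995), its sign turning in 5 of 12 alternatives. Its relative Loxl1, which acts on elastin, was higher, with 441 and 531 CPM against 256 and 336 CPM (log2 fold change 0.80 ± 0.086, adjusted p = 0.000686). Loxl2 was lower, with 284 and 367 CPM against 462 and 507 CPM (log2 fold change -0.51 ± 0.092, adjusted p = 0.0069), and Loxl3 was lower, with 35.8 and 29.8 CPM against 58.9 and 43.1 CPM (log2 fold change -0.56 ± 0.12, adjusted p = 0.016), calls that were lost in 2 and 4 of 12 alternatives. Adamts2, which removes the amino-terminal propeptide of procollagen, was higher, with 476 and 521 CPM against 206 and 227 CPM (log2 fold change 1.28 ± 0.084, adjusted p = 6.9e-05). The other type I collagen cells were near the selected cells for Plod2 (220 and 276 CPM) and Loxl1 (417 and 516 CPM). They were nearer the tendon-set cells for Loxl2 (406 and 481 CPM) and divided between libraries for Loxl3 (23.9 and 48.1 CPM).

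Of 22 tested proteoglycan genes 7 were higher and 9 lower. Dcn, which encodes decorin, had 6186 and 6648 CPM against 4292 and 4922 CPM (log2 fold change 0.55 ± 0.055, adjusted p = 0.000452). Kera, which encodes the keratocan of tendon and cornea, had 2.46 and 10.2 CPM against 209.6 and 293 CPM (log2 fold change -5.31 ± 0.26, adjusted p = 2.18e-05), and the cartilage proteoglycan gene Acan had 131 and 123 CPM against 948 and 572 CPM (log2 fold change -2.47 ± 0.15, adjusted p = 4.59e-05). Gpc3, a membrane proteoglycan that binds growth factors, was higher, with 72.5 and 88.4 CPM against 20.04 and 15.9 CPM (log2 fold change 2.22 ± 0.16, adjusted p = 0.000109). Among 27 matrix proteases and inhibitors 14 were higher and 4 lower. Mmp3, or stromelysin, had 263 and 654 CPM against 20.9 and 17.6 CPM (log2 fold change 4.49 ± 0.33, adjusted p = 0.000107), and the library of replicate 3 was the higher one. Adamts5, an aggrecan-cleaving protease, had 182 and 236 CPM against 34.2 and 40.3 CPM (log2 fold change 2.55 ± 0.10, adjusted p = 1.48e-05). The inhibitor genes split, with Timp3 higher (479.9 and 323 CPM against 188 and 210.5 CPM) and Timp1 and Timp2 lower.

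Wnt antagonists and agonists both differed. Of 27 tested genes of the Wnt system 12 were higher, 5 lower and 10 not called. Sfrp1, a relative of Sfrp2, had 1778 and 748 CPM against 344 and 196 CPM (log2 fold change 2.23 ± 0.12, adjusted p = 2.82e-05), and Sfrp4 had 212 and 272 CPM against 29.2 and 66.2 CPM (log2 fold change 2.51 ± 0.19, adjusted p = 0.000124). Rspo3, which amplifies Wnt signals through Lgr receptors, was rare but higher, with 32.8 and 20.8 CPM against 1.2 and 1.07 CPM (log2 fold change 4.63 ± 0.26, adjusted p = 3.76e-05), and its relative Rspo2 was lower, with 3.55 and 3.84 CPM against 17.7 and 17.4 CPM (log2 fold change -2.17 ± 0.24, adjusted p = 0.000768). Axin2, a common readout of canonical Wnt signals, had 7.66 and 4.16 CPM against 5.06 and 6.18 CPM and was not called (adjusted p = 0.804).

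In the TGF-β and BMP system 14 of 34 tested genes were higher and 7 lower. The receptors Tgfbr2 (278 and 269 CPM against 109 and 132 CPM) and Tgfbr3 (228 and 216 CPM against 48.1 and 58.5 CPM) were higher, while all 3 ligands Tgfb1, Tgfb2 and Tgfb3 were lower, with log2 fold changes of -0.82, -0.82 and -0.56. Inhba, the activin A gene, was lower too, with 66.2 and 24.98 CPM against 174 and 147 CPM (log2 fold change -1.81 ± 0.24, adjusted p = 0.00165). Among inhibitors and divergent ligands, Gdf10 had 121 and 89.4 CPM against 5.42 and 6.89 CPM (log2 fold change 4.18 ± 0.19, adjusted p = 1.88e-05), the activin antagonist Fst 209 and 232 CPM against 37.9 and 41.2 CPM (log2 fold change 2.55 ± 0.10, adjusted p = 1.3e-05) and the BMP modulator Bmper 58.5 and 42.9 CPM against 7.45 and 6.06 CPM (log2 fold change 2.98 ± 0.16, adjusted p = 2.82e-05). Gdf5, of joints and tendon progenitors, had 0 and 1 UMI against 120 and 40 UMIs, at least 18.7-fold lower with a floor of 3 UMIs.

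Receptors and ligands of platelet-derived and fibroblast growth factors showed a similar division. Of 18 genes 10 were higher and 4 lower. Pdgfra, the receptor that marks many mesenchymal progenitors, had 263 and 169.8 CPM against 82.7 and 69.7 CPM (log2 fold change 1.56 ± 0.12, adjusted p = 0.000147), and its ligands Pdgfa and Pdgfc were lower, Pdgfa with 25.4 and 16.01 CPM against 68.4 and 67.9 CPM (log2 fold change -1.64 ± 0.17, adjusted p = 0.000593). Fgf7, a growth factor for epithelia, had 180.5 and 105 CPM against 23.5 and 27.1 CPM (log2 fold change 2.54 ± 0.22, adjusted p = 0.000218), the lymphatic growth factor gene Vegfd 53.05 and 44.2 CPM against 6.53 and 9.87 CPM (log2 fold change 2.67 ± 0.22, adjusted p = 0.000188), and Fgf10 12.9 and 10.6 CPM against 0.276 and 0.594 CPM. In the insulin-like growth factor system 8 of 13 genes were higher and 2 lower. Igf1 had 1908 and 1559 CPM against 1165 and 974 CPM (log2 fold change 0.77 ± 0.066, adjusted p = 0.000233), and the binding protein gene Igfbp4 had 4073 and 2615 CPM against 1147 and 1235 CPM (log2 fold change 1.53 ± 0.16, adjusted p = 0.000527). The call of Igfbp2 rested on few cells, since in the library of replicate 3 a single cell held 55.3% of its 356 UMIs.

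Tendon and cartilage programmes were lower in the selected fibroblasts than in tendon-set cells, as far as genes outside the rule show. Of 19 tendon lineage genes 14 were lower and 4 higher. Scx, the transcription factor that specifies tendon cells, had 16.95 and 9.61 CPM against 384 and 343 CPM (log2 fold change -4.70 ± 0.17, adjusted p = 1.07e-05), and Mkx had 3.55 and 2.24 CPM against 27.4 and 31.4 CPM (log2 fold change -3.23 ± 0.26, adjusted p = 0.000169). Cilp2 had 2 and 1 UMI against 950 and 797 UMIs, at least 205-fold lower with the floor of 3 UMIs. The tendon-set cells were themselves selected by tendon genes, so genes that vary with those differ by the selection. The 4 higher genes, Egr1, Igfbp5, Dcn and Pdgfrb, are not restricted to tendon.

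Of 18 tested chondrogenesis genes 15 were lower and 0 higher in edgeR, with a median of -2.40. At an unadjusted p under 0.05, 0 were higher, and DESeq2 called 12 lower and 0 higher. Col2a1, the collagen of cartilage, had 1.09 and 3.84 CPM against 334 and 54.2 CPM (log2 fold change -6.19 ± 0.57, adjusted p = 0.000308), and Sox9, its regulator, had 99.5 and 77.2 CPM against 214 and 117 CPM (log2 fold change -0.79 ± 0.13, adjusted p = 0.00547). Sox9 was thus reduced far less than the cartilage matrix genes. Ucma had 1 UMI in each library against 1548 and 447 UMIs, at least 234-fold lower, and Col11a2 had 1 and 2 UMIs against 1737 and 497, at least 262-fold lower. Matn1 and Col10a1 were at 0 UMIs in both classes. Col2a1 and Col11a2 were low in the other type I collagen cells too, each with 3.42 and 1.78 CPM, so their low level was not particular to the selected cells. Of 13 tested ossification genes 4 were higher and 3 lower. Spp1, which encodes osteopontin, had 76.02 and 29.5 CPM against 791 and 659 CPM (log2 fold change -3.79 ± 0.23, adjusted p = 4.96e-05), and Enpp1, which makes the mineral inhibitor pyrophosphate, had 29.3 and 21.8 CPM against 177 and 177 CPM (log2 fold change -2.72 ± 0.14, adjusted p = 2.6e-05). Alpl, which encodes the alkaline phosphatase that removes pyrophosphate, was higher at a low level, with 36.1 and 17.6 CPM against 4.51 and 3.09 CPM (log2 fold change 2.88 ± 0.22, adjusted p = 0.000135). Sp7 and Bglap, of osteoblasts, were at or near 0 in both classes, and Runx2 was not called (27.9 and 23.1 CPM against 26.8 and 20.8 CPM).

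Hif1a, which encodes the oxygen-regulated transcription factor that the Cre line was made to delete, was measured at 565 and 507 CPM against 456 and 339.8 CPM (log2 fold change 0.52 ± 0.093, adjusted p = 0.00682). This call was lost in 2 of 12 alternatives, and the level in haematopoietic marker cells was 219 and 253 CPM. Since deletion of an exon can leave the 3' tag in place, recombined cells were not marked here and the labels do not give the Cre status of the mice, the level says nothing of functional Hif1a. Genes that HIF-1 is known to activate did not move one way. Of 27 tested targets 10 were higher and 9 lower, with a median of -0.25, and DESeq2 called 4 higher. Vegfa, the angiogenic target, had 89.4 and 62.5 CPM against 92.4 and 58.1 CPM and was not called (adjusted p = 0.559). Adm, which encodes adrenomedullin, was higher, with 31.2 and 33.95 CPM against 3.59 and 4.87 CPM (log2 fold change 3.03 ± 0.20, adjusted p = 6.6e-05), and so were Ndrg1 and Cxcl12. The monocarboxylate exporter gene Slc16a3 was lower, with 10.7 and 8.65 CPM against 47.7 and 31.9 CPM (log2 fold change -1.96 ± 0.17, adjusted p = 0.000227).

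Glycolytic genes were mostly lower. Of 25 genes of glucose uptake and glycolysis 13 were lower, 2 higher and 10 not called, with a median of -0.49, and DESeq2 called 8 lower. The glucose transporter gene Slc2a1 had 11.5 and 8.01 CPM against 25.6 and 16.8 CPM (log2 fold change -1.04 ± 0.19, adjusted p = 0.00689), Eno1 85.3 and 64.1 CPM against 185 and 135 CPM (log2 fold change -1.03 ± 0.10, adjusted p = 0.000422), Aldoa 178 and 184 CPM against 300.2 and 282 CPM (log2 fold change -0.61 ± 0.093, adjusted p = 0.00331) and Gapdh 199 and 209 CPM against 266 and 313 CPM (log2 fold change -0.43 ± 0.094, adjusted p = 0.0163). The call of Gapdh was kept in 8 of 12 alternatives, that of Slc2a1 in 9 of 11, and those of Eno1 and Aldoa in 11 of 12 each. Pfkp was at the threshold, with 22.1 and 21.8 CPM against 31.7 and 32.8 CPM (log2 fold change -0.48 ± 0.14, adjusted p = 0.0474), and kept its call in 3 of 11 alternatives. The exceptions were Hk2, an inducible hexokinase, with 119 and 146 CPM against 47.1 and 62.99 CPM (log2 fold change 1.35 ± 0.10, adjusted p = 0.000134), and the lactate transporter gene Slc16a1, with 90.2 and 62.5 CPM against 31.4 and 25.2 CPM (log2 fold change 1.5 ± 0.12, adjusted p = 0.000154). Other type I collagen cells lay between the selected and tendon-set cells for Eno1 (104 and 103 CPM), Aldoa (196 and 248 CPM), Gapdh (212 and 276 CPM) and Hk2 (74.2 and 88.6 CPM). Their Slc2a1 level was 15.1 and 17.4 CPM, and their Pfkp level, 40.5 and 34.7 CPM, was above that of the selected and tendon-set cells.

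Hoxa11, the gene that drives the Cre, had 25.98 and 27.2 CPM against 26.7 and 32.4 CPM and was not called (adjusted p = 0.778). Of 31 Hox and limb transcription factor genes 4 were higher, near the 13.3% over all genes, and 9 lower, against 10.4% over all genes. The lower ones included the posterior genes Hoxd9, Hoxd10 and Hoxd11, each under 10 CPM in the selected fibroblasts, Hoxd11 with 5.74 and 4.16 CPM against 16.6 and 13.8 CPM (log2 fold change -1.54 ± 0.23, adjusted p = 0.0032). Twist2, a transcription factor of dermal fibroblasts, was higher, with 27.3 and 38.1 CPM against 8.55 and 11.4 CPM (log2 fold change 1.78 ± 0.16, adjusted p = 0.000298), but the other type I collagen cells had more, 67.9 and 50.7 CPM. Of the 66 named genes called higher, 4 (Ccl11, Twist2, Loxl4 and Aox1) had higher CPM in the other type I collagen cells of both libraries. Also higher was Osr1, which marks connective tissue progenitors of muscle, with 52.5 and 40.4 CPM against 15.8 and 20.1 CPM (log2 fold change 1.46 ± 0.19, adjusted p = 0.00165). Among 17 antioxidant genes 6 were higher and 3 lower, and Mgst1, a microsomal glutathione transferase, had 267 and 247 CPM against 50.6 and 60.1 CPM (log2 fold change 2.30 ± 0.12, adjusted p = 2.85e-05).

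Cell division genes were low in the selected cells, and lower in the library of replicate 3. Mki67, the common proliferation marker, had 27.3 and 0.641 CPM against 71.6 and 53.2 CPM, and in the first library 9 selected cells held its 100 UMIs, of which 1 cell held 35, while in the library of replicate 3 only 2 cells held a UMI each. Of 20 division genes 5 were called lower, 15 were not called and 0 were higher in edgeR (0 at an unadjusted p under 0.05, and 0 in DESeq2). The adjusted p of Mki67 was 0.0253, and it passed in 9 of 12 alternatives. Cenpf and Tpx2 kept their calls in 5 of 11 alternatives each, and Cdc20 in 8 of 11. Over all 1485 genes that reached 100 CPM in either library, 8 were at least 2-fold higher in the selected cells of replicate 3 and 14 in those of replicates 1 and 2. The widest of these differences was in Xist, the noncoding RNA of the inactive X chromosome, with 547 CPM in the selected cells of replicates 1 and 2 and 0 in those of replicate 3. In tendon-set cells the log2 ratio of replicate 3 to the first library was -11.5 for Xist. The libraries thus differ in this respect in both classes, and its part in the other differences between them was not tested.

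The largest called differences at 100 CPM or more included further genes outside these groups. Sned1, which encodes a matrix protein, had 199 and 110.2 CPM against 2.76 and 5.23 CPM (log2 fold change 5.36 ± 0.33, adjusted p = 4.84e-05), Plac8 124 and 123 CPM against 10.7 and 6.77 CPM (log2 fold change 3.89 ± 0.16, adjusted p = 1.48e-05) and Ace, which encodes the angiotensin-converting enzyme, 87.5 and 132 CPM against 5.24 and 11.9 CPM (log2 fold change 3.80 ± 0.16, adjusted p = 1.51e-05). On the lower side, Acta2, the smooth muscle actin of myofibroblasts, had 44.02 and 49.3 CPM against 695 and 879.8 CPM (log2 fold change -3.99 ± 0.10, adjusted p = 3.91e-06), the water channel gene Aqp1 10.7 and 6.41 CPM against 143 and 147 CPM (log2 fold change -3.99 ± 0.18, adjusted p = 1.89e-05) and Clu, which encodes clusterin, 22.7 and 9.61 CPM against 144 and 122 CPM (log2 fold change -2.98 ± 0.21, adjusted p = 9.03e-05). Acta2 is itself one of the pericyte and smooth muscle markers, whose sums are given above. Lgals7, a galectin of stratified epithelium, had 2.46 and 1.6 CPM against 208 and 11.8 CPM (log2 fold change -5.66 ± 0.44, adjusted p = 0.000137), and its high value lay in the tendon-set cells of the first library, where the keratinocyte markers summed to 580.4 CPM. Without doublets and cells in which more than 1% of UMIs were markers of another cell type, its log2 fold change was -2.01 ± 0.40 (adjusted p = 0.005).

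The selected fibroblasts were not uniform. When they were divided by the leading gene of the rule, 47 and 24 cells were Sfrp2-led and 51 and 46 were Col14a1-led, with median depths of 43337 and 47299 UMIs and of 33874 and 43644.5 UMIs. This division and the 2-fold limit were chosen with the data in view and follow from the gate genes, so the values are descriptions with no test. Of 1515 genes at 100 CPM or more in either kind, 17 including Sfrp2 were at least 2-fold higher in Sfrp2-led cells of both libraries, and 33 including Col14a1 in Col14a1-led cells. The pericellular growth factor gene Ptn had 1247 and 3283 CPM in Sfrp2-led cells and 594 and 569 CPM in Col14a1-led cells. Sfrp1 had 2635 and 1152 CPM in Sfrp2-led cells and 875 and 504 CPM in Col14a1-led cells, and the neutrophil attractant Cxcl5 had 1073 and 747 CPM in Sfrp2-led cells and 509 and 251 CPM in Col14a1-led cells. Sfrp2-led cells also carried more of the skeletogenic genes Acan, Sox9 and Tnn, of which Acan had 195 and 245 CPM in Sfrp2-led cells and 49.4 and 49.3 CPM in Col14a1-led cells.

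The 33 genes higher in Col14a1-led cells included the adventitial genes Pi16, Clec3b, Ly6c1, Sema3c and Igfbp6 and the elastic fibre genes Eln, Mfap4 and Ltbp4. Pi16 had 132 and 102 CPM in Sfrp2-led cells and 447 and 386 CPM in Col14a1-led cells. Clec3b had 131 and 261 CPM in Sfrp2-led cells and 516 and 704 CPM in Col14a1-led cells, and Eln had 183 and 335 CPM in Sfrp2-led cells and 854 and 1353 CPM in Col14a1-led cells. The genes Tppp3, Tnxb, Sfrp4, Gdf10 and Col15a1 lay on the same side, as did the growth factor binding proteins Igfbp5 and Igfbp7. Gdf10 had 42.6 and 17.9 CPM in Sfrp2-led cells and 212 and 132 CPM in Col14a1-led cells. The complement gene C2 was higher in Col14a1-led cells, whereas C3 and Il6 did not pass the 2-fold limit in either direction.

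**Figure D4:**
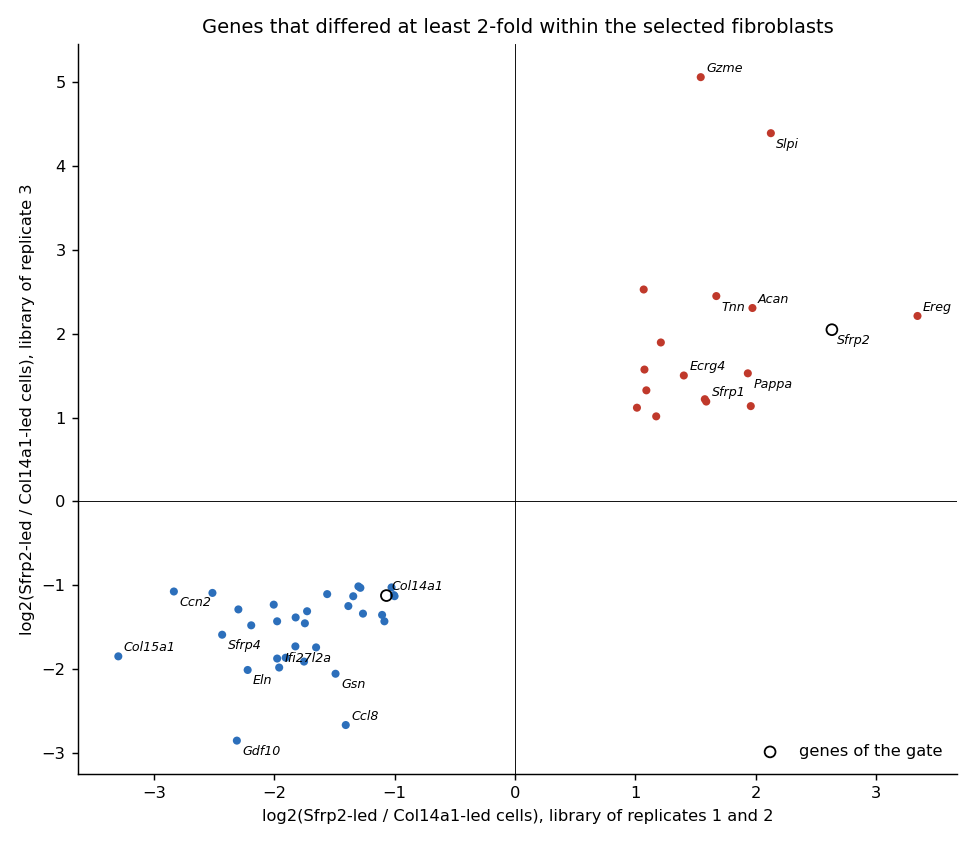
Log2 ratio of CPM between Sfrp2-led and Col14a1-led cells in the library of replicates 1 and 2 (x axis) and of replicate 3 (y axis) for the 50 genes that differed at least 2-fold in the same direction in both libraries. Red genes, 17 with Sfrp2, are higher in Sfrp2-led cells and blue genes, 33 with Col14a1, in Col14a1-led cells; open circles mark genes of the rule.

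In the wild-type Visium sections, which took no part in the choice of cells, the same shares with at least 1000 UMIs and 3 UMIs of the set per spot gave 8 and 10 Sfrp2-set spots, with 12263 and 13471 UMIs, beside 285 and 241 tendon-set spots. A spot can hold several cells of different types, and fewer cells of a type cannot be told apart from less RNA per cell. Prg4 had 0 UMIs in these spots, where 3 UMIs would be 245 and 223 CPM, and only 25 and 24 UMIs in the whole sections. Sfrp2 gave 31 and 25 UMIs of the set and Col14a1 6 and 6, so the spots were chosen mostly by Sfrp2. The tendon-set spots were chosen mostly by Comp, with 1674 and 1396 UMIs. Thbs4 had 310 and 269 UMIs there, Fmod 67 and 39, and Tnmd 1 and 4. Genes that vary with Comp over spots therefore differ by the selection, and whether Col2a1 and Col9a1 below do so was not tested. Of 7253 genes tested with edgeR, 1 was higher and 58 lower (0.0138% and 0.8%, 0.813% in all), around a median log2 fold change of -0.76 over all genes, so that a call of lower is read against that shift. DESeq2 called 5 higher and 19 lower of 945 genes with an adjusted p. Of the 58, 50 had lower CPM in both sections. Col2a1 had 1549 and 1930.1 CPM against 7012 and 7944 CPM (log2 fold change -2.79 ± 0.21, adjusted p = 1.24e-34). Col9a1, another cartilage collagen, had 245 and 445 CPM against 1404 and 1439 CPM (log2 fold change -2.72 ± 0.40, adjusted p = 2.83e-08), from 9 UMIs in the Sfrp2-set spots. The fit also held the other spots that passed the limits on UMIs and type I collagen. A p in spots rests on this pair of sections alone, with the spread of each gene drawn towards that of all genes. The only higher gene, Wdfy1, rested on section A1 (897 and 74.2 CPM against 54.3 and 57.3 CPM).

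Few genes were deep enough to follow from cells to spots. Levels in spots were compared after a fraction of a UMI was added to each sum. Of 104 tested genes at 1000 CPM or more in either kind of spot, 32 (30.8%) were higher in the Sfrp2-set spots of both sections. The share was 13 of 20 (65%) among genes called higher in the selected fibroblasts and 5 of 32 (15.6%) among genes called lower. On that scale the contrast over all 7253 genes tested in spots was smaller. It came to 495 of 898 (55.1%) among genes called higher in cells, 302 of 764 (39.5%) among genes called lower and 49.97% overall. A gene without UMIs in the few Sfrp2-set spots can count as higher there through the added fraction. The shares over all genes therefore cannot be read as higher CPM. The 13 included Mfap2, with 1957 and 1930.1 CPM against 901 and 594 CPM, and Apoe, with 2202 and 1262 CPM against 1027 and 807 CPM. Ptx3 had 1223 and 1262 CPM against 987 and 1077 CPM, which is 15 and 17 UMIs in the Sfrp2-set spots, but its fitted log2 fold change was -0.43 ± 0.29 (adjusted p = 0.571, edgeR). Of the 13 genes 9, Ptx3 among them, had a fitted log2 fold change below 0, the opposite sign to that in cells. Lum gave 1 UMI in each section. At this depth most of the chemokine and complement genes could not be assessed in spots.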

How the data were processed

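Single-cell 3' libraries (v3 chemistry) of Hoxa11CreER;ROSA-LSL-TdTomato;Hif1a fl/fl mice and Visium sections of wild-type mice were used. The deposited values are raw UMI counts per gene and cell or spot, made by the authors with Cell Ranger 5.0.1 and Space Ranger against mm10, per the labels. Deposited barcodes, symbols and spot positions were used as given. For each class, the UMIs of all its cells in a library were added up, and these sums were compared in edgeR 4.0.16 (TMM, filterByExpr, quasi-likelihood test, Benjamini-Hochberg adjustment, threshold 0.05), with a term for each library or section, since the classes compared share their mice. Poisson and Wilson intervals cover counting error only. On simulated counts for the comparison of cells, 36 of 100 genes changed by 1 on the log2 scale and 86 of 100 changed by 2 were recovered, with 0 false calls among 11597 genes. These counts were drawn independently, with the same spread for every gene and no effect of the library or of the selection. They therefore do not measure power or false calls in the real data. Doublets were marked with Scrublet and kept. Members, gene lists and tests were chosen with earlier results of these data known. Genes named are those of the working name and the rule, the study's pathway genes, the 10 highest and 10 lowest called genes at 100 CPM or more, and up to 4 called genes per list with the largest change. Other genes named were chosen after their values were seen. C4b, Ly6a, Ly6c1, Gapdh, Eno1 and Aldoa have near-identical copies or pseudogenes, so their counts are uncertain. DESeq2 1.42.0, other filters, limits and gates were tried as alternatives. The authors' spatial enrichment table and image scale factors were not used. An item of the complement list is not reported here.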

Additional observations from a re-analysis of the deposited data

How the results depend on the processing

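The counts of genes called depended on the test and on depth. For cells, DESeq2 called 997 genes (622 higher, 375 lower), and thinning each cell to 2000 UMIs left 3819 genes to test, of which 715 were called (439 higher, 276 lower). Without a filter on low counts 1876 genes were lower, and with the other type I collagen cells added to the fit 821 were lower. Without the replicate block, which pairs classes of the same library, 1214 genes were higher and 848 lower in cells, and 1 higher and 58 lower in spots. For spots, DESeq2 called 24 genes (5 higher, 19 lower), and no filter gave 125 (124 lower). The other alternatives that were run kept these counts within 1.5 times. The cause of these shifts was not tested.

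Of 1373 refitted values for 119 named genes, 6 had the opposite sign, none of them called. Of 116 called genes, 30 lost the call in at least 1 refit. The log2 fold change of Lox was 0.10 with thinned cells, 0.019 with a gate without Prg4 (chosen after seeing the data), 0.0071 with other cells added, 0.019 with a set at least 2 times the others and 0.13 with a set share of 0.2%, and that of Hoxa11 was 0.018 at 0.2%. Leaving out a library leaves no residual degrees of freedom, so only ratios per library were computed. These moved by more than the spread between libraries in 34 genes without replicate 3 and in 43 without replicates 1 and 2, and 2 of 238 changed sign, Vegfa (-0.046 without replicate 3) and Lox (0.11 without replicates 1 and 2), neither of them called. The log2 ratio of Mki67 was -1.38 without replicate 3 and -6.06 without replicates 1 and 2, and that of Col2a1 was -8.09 and -3.76. The comparison with Coch-set cells and the limit of 5 UMIs per spot were not run, because too few cells or spots were left.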
